A study of Mus musculus with 23 samples.

Results

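Expression of 31 genes of cholesterol synthesis and sterol regulation was followed over 23 mouse arrays. The genes were taken as a list by function: 18 enzymes that lead from acetyl-CoA to cholesterol, 5 genes that regulate sterol-responsive transcription, 3 that move sterol inside the cell, and 5 of sterol sensing and efflux. Of the 31, 29 had a probe set annotated to that gene alone, among 18194 genes measured in this way. *Acat2*, the thiolase that opens the pathway, and *Nr1h2*, a liver X receptor, had none and are named only. Each gene was read from whichever of its single-gene probe sets was brightest on average, as a log2 RMA value, on which 1 unit is a doubling of signal.

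The arrays came from 3 tumours induced with CRISPR/Cas9 against *Ptch1* (CRISPR-Ptch1), 4 tumours of germline *Ptch1*+/- mice, 5 MERP tumours, 4 GTML tumours, 3 samples of granule neuron precursors (GNPs) and 4 adult cerebella. Of the CRISPR-Ptch1 tumours, 2 followed *in utero* electroporation of wild-type embryos (EP), and 1 followed transfection of the neonatal cerebellum (TF), for which the study used *Trp53*-/- animals. MERP tumours lost *Ptch1* after birth in cells that express *Atoh1* (Math1), the study naming an *Atoh1*-CreER;*Ptch1* fl/fl model, and GTML tumours arose under overexpression of *Mycn*. GNPs were isolated between postnatal days 4 and 7. The ages of the other animals are not given in the sources used here. Per the labels all mice were CD1, but the study's methods name another strain for the transfected ones. The single TF tumour differs from the EP tumours in gene delivery, age at delivery and *Trp53* status at once, and these cannot be told apart. The guides target the second exon of *Ptch1*, and the insertions and deletions they leave vary between cells and tumours.

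Cells build cholesterol from acetyl-CoA through mevalonate, farnesyl diphosphate, squalene and lanosterol, and the brain makes its own because lipoproteins of the blood do not cross into it. When membrane sterol is low, SCAP escorts the SREBP factors encoded by *Srebf1* and *Srebf2* to the Golgi, where they are cut and released to switch on the genes of synthesis, and INSIG proteins hold that complex back when sterol is plentiful. Liver X receptors answer to oxysterols and raise genes of sterol export. In the SHH pathway of granule neuron precursors, PTCH1 restrains Smoothened, a receptor that binds sterols, and PTCH1 carries a sterol-sensing domain like those of NPC1 and SCAP.

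Promoters of the enzymes are shown first, since SREBP factors bind sterol regulatory elements and commonly act beside NF-Y, which binds CCAAT. A window from 250 bases before to 50 bases after the annotated start was taken from RefSeq (GRCm38.p6) for 25 of the 31 genes, and *Fdft1*, *Sqle*, *Fdps*, *Stard4*, *Npc1* and *Abcg1* had no entry. The element TCACNCCAC, searched on both strands with N as any base, was found in *Hmgcs1* alone among the 25 genes (4%), against 388 of 27025 genes (1.44%). Counted by window it was found in 1 of 36 (2.78%), against 408 of all 32851 windows (1.24%). The 250 bases before the start of *Hmgcs1* hold the element 137 bases upstream and CCAAT boxes, read as ATTGG on this strand, all in capitals.
Hmgcs1 (chr13:119690101-119690350, plus strand): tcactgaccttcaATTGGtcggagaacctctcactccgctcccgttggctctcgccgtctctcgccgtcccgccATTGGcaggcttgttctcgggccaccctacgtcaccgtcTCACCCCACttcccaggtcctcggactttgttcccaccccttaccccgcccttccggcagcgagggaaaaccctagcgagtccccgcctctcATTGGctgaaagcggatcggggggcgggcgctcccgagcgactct

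CCAAT, on either strand, was far more frequent. It occurred in 14 of the 15 enzymes with a window (93.3%) and in 19 of the 25 genes of the whole list with one (76%), against 41.1% of 27025 genes and 37.4% of 32851 windows. Counted by window and in the last 100 bases before the start, it was found in 13 of 18 enzyme windows (72.2%), against 18.9% of all windows. The last 2 lines, *Sc5d* and *Pmvk*, are enzymes that were not higher in GNPs than in adult cerebellum, and the lines before them are enzymes that were, as the results give it. *Tm7sf2*, *Msmo1* and *Ebp*, which were not called higher either, are not printed. They hold 1, 2 and 1 boxes in these 100 bases, so the 2 lines do not stand for the enzymes not called higher. Where a gene has several annotated starts, the window with the most CCAAT boxes is shown, which bears on *Dhcr7* (3 windows, the other 2 without a box) and *Pmvk* (2 windows). Each line gives the 100 bases before that start, 5′ to 3′ on the gene's strand, with CCAAT or ATTGG in capitals.
Mvk (chr5:114444169-114444268, plus strand): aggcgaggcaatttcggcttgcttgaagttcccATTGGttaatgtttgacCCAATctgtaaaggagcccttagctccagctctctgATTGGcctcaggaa
Mvd (chr8:122443423-122443522, minus strand): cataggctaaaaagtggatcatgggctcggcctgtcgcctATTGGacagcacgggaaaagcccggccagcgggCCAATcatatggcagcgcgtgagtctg
Idi1 (chr13:8885506-8885605, plus strand): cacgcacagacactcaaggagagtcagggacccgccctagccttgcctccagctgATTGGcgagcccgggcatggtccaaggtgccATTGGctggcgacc
Lss (chr10:76531505-76531604, plus strand): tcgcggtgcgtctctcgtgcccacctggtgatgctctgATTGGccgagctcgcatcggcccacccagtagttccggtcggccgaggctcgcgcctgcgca
Cyp51 (chr5:4104698-4104797, minus strand): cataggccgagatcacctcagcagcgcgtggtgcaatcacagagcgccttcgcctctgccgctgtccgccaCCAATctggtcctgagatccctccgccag
Nsdhl (chrX:72918421-72918520, plus strand): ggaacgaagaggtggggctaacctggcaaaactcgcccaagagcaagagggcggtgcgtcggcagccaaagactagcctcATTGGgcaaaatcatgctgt
Hsd17b7 (chr1:169969206-169969305, minus strand): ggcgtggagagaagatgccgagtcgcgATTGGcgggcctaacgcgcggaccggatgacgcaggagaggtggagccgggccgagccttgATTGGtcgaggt
Dhcr7 (chr7:143830114-143830213, plus strand): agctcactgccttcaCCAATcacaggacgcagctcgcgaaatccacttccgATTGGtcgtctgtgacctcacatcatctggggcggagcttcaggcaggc
Sc5d (chr9:42264301-42264400, minus strand): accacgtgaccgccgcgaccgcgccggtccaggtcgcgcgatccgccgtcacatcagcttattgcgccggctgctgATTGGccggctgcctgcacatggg
Pmvk (chr3:89454441-89454540, plus strand): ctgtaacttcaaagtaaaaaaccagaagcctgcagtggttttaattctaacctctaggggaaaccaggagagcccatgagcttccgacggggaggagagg

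Counted by gene, in the window with the most boxes, CCAAT was present in all 9 enzymes that were higher in GNPs than in adult cerebellum and had a window, and also in all 5 other measured enzymes with a window. Within the last 100 bases the counts were 9 of 9 and 4 of 5, *Pmvk* being the one without. A match describes these letters and not an occupied site.

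Sample identity and quality bear on what follows. Tumours and GNPs shared high proliferation genes (mean of 7 genes 11.52 to 11.90 over the groups, against 6.05 in adult cerebellum). Granule precursor genes averaged 6.56 in GTML tumours, against 10.71 in GNPs. The gap between 3′ and 5′ control probe sets of *Gapdh* and *Actb*, which widens as RNA is degraded or truncated, averaged 0.21 in CRISPR-Ptch1, 1.23 in Ptch1+/-, 0.86 in MERP and 1.17 in GTML tumours, 0.40 in GNPs and 0.51 in adult cerebellum. Endothelial (6 genes) and choroid plexus (5 genes) lists were highest in GNPs, the tumour groups averaging 6.42 to 7.08 and 5.52 to 7.09, GNPs 9.21 and 10.01, and adult cerebellum 7.05 and 6.71. Mature granule neuron genes (5 measured) averaged 9.32 in CRISPR-Ptch1 tumours, against 6.16 to 7.15 in the other tumour groups, 7.15 in GNPs and 12.64 in adult cerebellum. Purkinje cell genes (4 measured) averaged 9.98 in CRISPR-Ptch1 tumours, against 5.65 to 6.72 in the other tumour groups, 8.29 in GNPs and 14.08 in adult cerebellum. The part of these differences in the sterol genes was not tested. *Ptch1* itself read 12.98 in CRISPR-Ptch1, 11.85 in Ptch1+/- and 13.04 in MERP tumours, against 11.82 in GNPs. The probe set's place relative to the disrupted part is not given here, so it does not check the labels. *Mycn* read 7.83 in GTML tumours and 6.88 in adult cerebellum, against 12.34 in CRISPR-Ptch1, 12.13 in Ptch1+/- and 12.16 in MERP tumours and 11.75 in GNPs. Whether its probe set reads the transgene is likewise not given.

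GNPs held the highest levels of the synthesis pathway. Averaged over the 17 measured enzymes, the CRISPR-Ptch1 arrays lay at 9.24 to 9.36, the Ptch1+/- arrays at 8.79 to 9.36, the MERP arrays at 9.07 to 9.44 and the GTML arrays at 8.97 to 9.44. The 3 GNP arrays read 10.16, 10 and 9.97, and the adult arrays 9.17 to 9.25, so that no array of another group reached those of GNPs. The tumour arrays overlapped adult cerebellum in this mean. Ptch1+/- arrays 1 and 2 read 9.36 and 9.17 in it, and arrays 3 and 4 read 8.84 and 8.79. Arrays 1 and 2 also lay above arrays 3 and 4 in *Sqle*, *Msmo1*, *Ebp*, *Sc5d*, *Npc1* and *Apoe*, among others, and below them in *Hmgcs1*, *Mvd* and *Fdft1*. Means of this group therefore cover unlike arrays. GNPs had the highest group mean of 15 of the 29 genes, adult cerebellum of 6, Ptch1+/- of 4, CRISPR-Ptch1 of 3 and GTML of 1. In bulk samples like these, fewer cells of a type and less RNA per cell cannot be told apart.

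**Figure D1:**
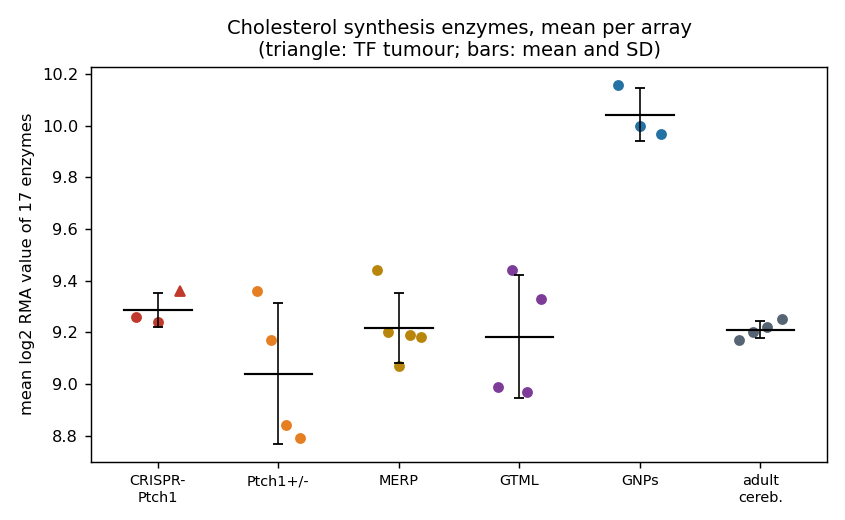
Mean log2 RMA value of the 17 measured cholesterol synthesis enzymes on each array (y axis), by group (x axis), with the group mean and SD as bars and the TF tumour as a triangle. The tumour arrays reach at most 9.44, below all 3 GNP arrays, which sit between 9.97 and 10.16 and above the adult arrays at 9.17 to 9.25.

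Each comparison was tested by limma in 1 fit of 6 groups with Benjamini-Hochberg adjustment over all genes, and a gene was called at an adjusted p under 0.05. Log2 differences below are the first group minus the second, ± SE, so a negative value is lower in the first group. An array named after an adjusted p is one whose removal ends that call, with the value then found. The p-values measure the spread between samples, and the sources do not say which of them share an animal or a litter. Of the 29 genes, 27 differed somewhere between the 6 groups by the moderated F test, against 76.1% of all genes. *Ebp* (adjusted p = 0.0598) and *Scap* (adjusted p = 0.224) were not called.

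GNPs against adult cerebellum, a precursor stage against the mature tissue, called 17 genes higher and 5 lower of 29, where 29.1% of all genes were higher and 21% lower. Among the 17 enzymes, 12 were higher and 1 was lower, and of these 13 calls 11 higher and the 1 lower held with each array left out in turn. The enzymes' median log2 difference was 0.87, beside 0.03 over all genes.

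Set against GNPs, the tumours' calls ran the other way. CRISPR-Ptch1 tumours had 1 gene higher and 11 lower (background 5.79% and 7.95%). Ptch1+/- tumours had 3 higher and 14 lower (background 9.4% and 29.9%). MERP tumours had 1 higher and 17 lower (background 7.12% and 12.1%), and GTML tumours 2 higher and 20 lower (background 16.1% and 25.7%). No enzyme was called higher in any of the 4 models. Enzymes called lower numbered 9 in CRISPR-Ptch1, 12 in Ptch1+/-, 14 in MERP and 13 in GTML tumours, of which 5, 12, 11 and 10 held with each array left out. Without GNP replicate 1, CRISPR-Ptch1 tumours had 7 genes and 5 enzymes lower. The few genes called higher than in GNPs changed with single arrays: 0 in CRISPR-Ptch1 tumours without EP 1 or GNP replicate 3 and 2 without TF, 1 in Ptch1+/- without GNP replicate 2 or 3, and 1 in GTML without GTML replicate 2 or 3 or GNP replicate 1. The enzymes' median was -0.66, -0.88, -0.75 and -1.0 in that order, beside 0.00, -0.10, 0.05 and -0.01 over all genes. These 4 comparisons share the same 3 GNP arrays, and GNP replicate 1 had the highest enzyme mean.

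Relative to adult cerebellum the list was divided, at shares near the background. CRISPR-Ptch1 tumours had 9 genes higher and 5 lower (background 26.4% and 21.1%). In Ptch1+/- tumours 9 were higher and 11 lower (background 22.4% and 30.8%). In MERP tumours 9 were higher and 9 lower (background 30.8% and 24.9%), and in GTML tumours 7 were higher and 10 lower (background 27.3% and 27.9%). Enzymes split 5 higher to 3 lower in CRISPR-Ptch1, 6 to 6 in Ptch1+/-, 5 to 5 in MERP and 5 to 6 in GTML tumours. Without the TF tumour the split was 3 to 3 in CRISPR-Ptch1 tumours, and without GTML replicate 3 it was 8 to 5 in GTML tumours. After centring on the median of named genes it was 3 to 4 in CRISPR-Ptch1 and 8 to 4 in GTML tumours. So centred, 43.2% and 62.9% of the calls over all genes were higher, against 55.6% and 49.4% as deposited. These counts include *Lss*, whose probe sets disagree in direction.

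Among the models, CRISPR-Ptch1 tumours had the fewest calls in this list against MERP tumours. There, 4 genes were higher and 1 lower (background 8.2% and 5.15%). Of these 5 calls 1, *Apoe*, held with each array left out, and the count was 2 without EP replicate 1, 1 without EP replicate 2, 3 without MERP replicate 1 or 3 and 2 without MERP replicate 4. Against Ptch1+/- tumours 7 were higher and 5 lower (background 28.5% and 8.33%), and against GTML tumours 9 were higher and 3 lower (background 22.7% and 14.1%). None of the 3 lower calls against GTML held with each array left out, the count being 1 without the TF tumour. With the TF tumour alone as the CRISPR-Ptch1 group, an arm of 1 array assumed to vary like the other groups, limma called 6 against GNPs, 4 against Ptch1+/- and 0 against MERP (4 at an unadjusted p under 0.05), and fewer calls follow from 1 array by itself.

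**Figure D2:**
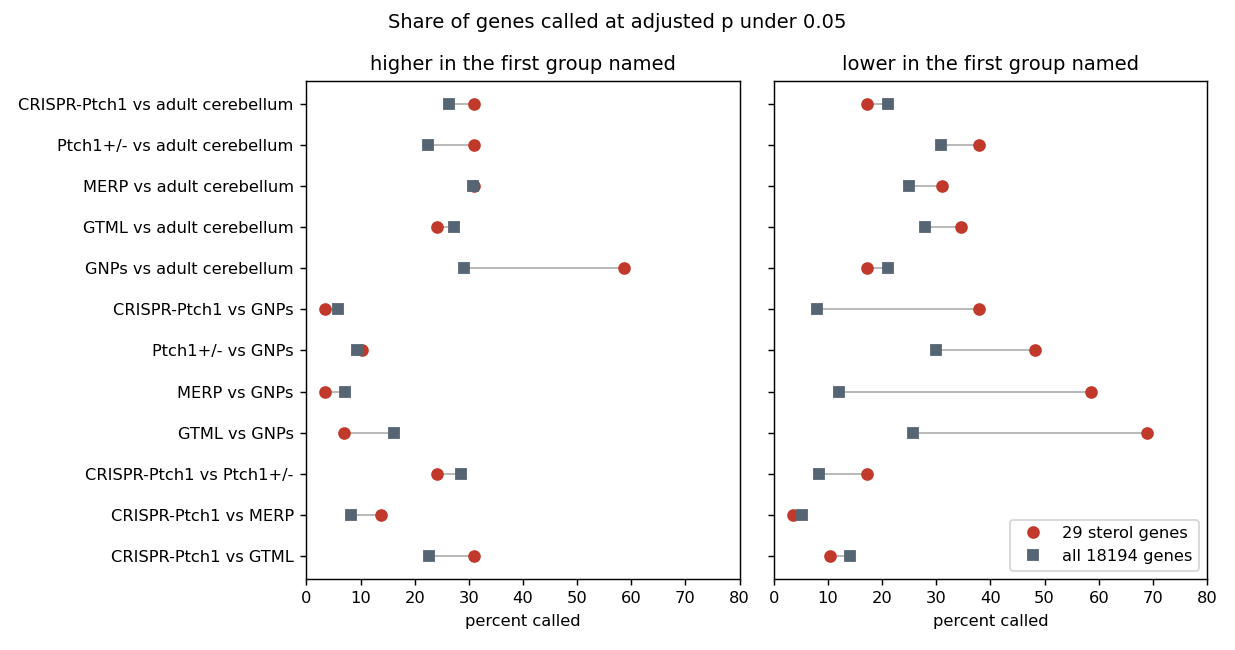
Share called at an adjusted p under 0.05 (x axis, percent) among the 29 sterol genes (circles) and all 18194 genes (squares) in each of 12 comparisons (y axis), higher in the group named first on the left and lower on the right. Among genes lower than in GNPs, the circles lie right of the squares in each tumour model. The counts are 11 of 29 in CRISPR-Ptch1 (background 7.95%), 14 of 29 in Ptch1+/- (background 29.9%), 17 of 29 in MERP (background 12.1%) and 20 of 29 in GTML tumours (background 25.7%). The circle also lies right for genes higher in GNPs than in adult cerebellum (17 of 29, background 29.1%).

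How the arrays are centred matters for the split of these calls. Centring each array on the median of the named genes moved the median difference of all genes in GTML against GNPs to 0.42, in Ptch1+/- against GNPs to 0.44 and in CRISPR-Ptch1 against Ptch1+/- to -0.36, against -0.01, -0.10 and 0.12 with the values as deposited. So centred, against GNPs the calls were 8 higher and 9 lower in Ptch1+/- and 4 and 12 in MERP tumours. Of the calls over all genes, 80.5% and 79% were then higher, against 23.9% and 37.1% as deposited. Against adult cerebellum the calls in the list were 7 and 7 in CRISPR-Ptch1, 13 and 7 in Ptch1+/- and 10 and 7 in GTML tumours. Over all genes 43.2%, 64.2% and 62.9% of calls were then higher, against 55.6%, 42% and 49.4% as deposited. CRISPR-Ptch1 tumours then had 2 higher and 11 lower against Ptch1+/-, 3 and 2 against MERP and 7 and 9 against GTML. There 20.7%, 23% and 22% of calls over all genes were higher, against 77.4%, 61.4% and 61.7% as deposited. Centring on the median of all probe sets gave 1 and 16 in Ptch1+/- against GNPs, and a repeated quantile normalization 8 and 5 in CRISPR-Ptch1 against GTML. In these 17.1% and 58.9% of calls over all genes were higher. Under each of these scalings no enzyme was called higher than in GNPs in any tumour model, and the enzymes lower after centring on named genes numbered 8, 9, 10 and 7 in CRISPR-Ptch1, Ptch1+/-, MERP and GTML tumours.

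**Figure D3:**
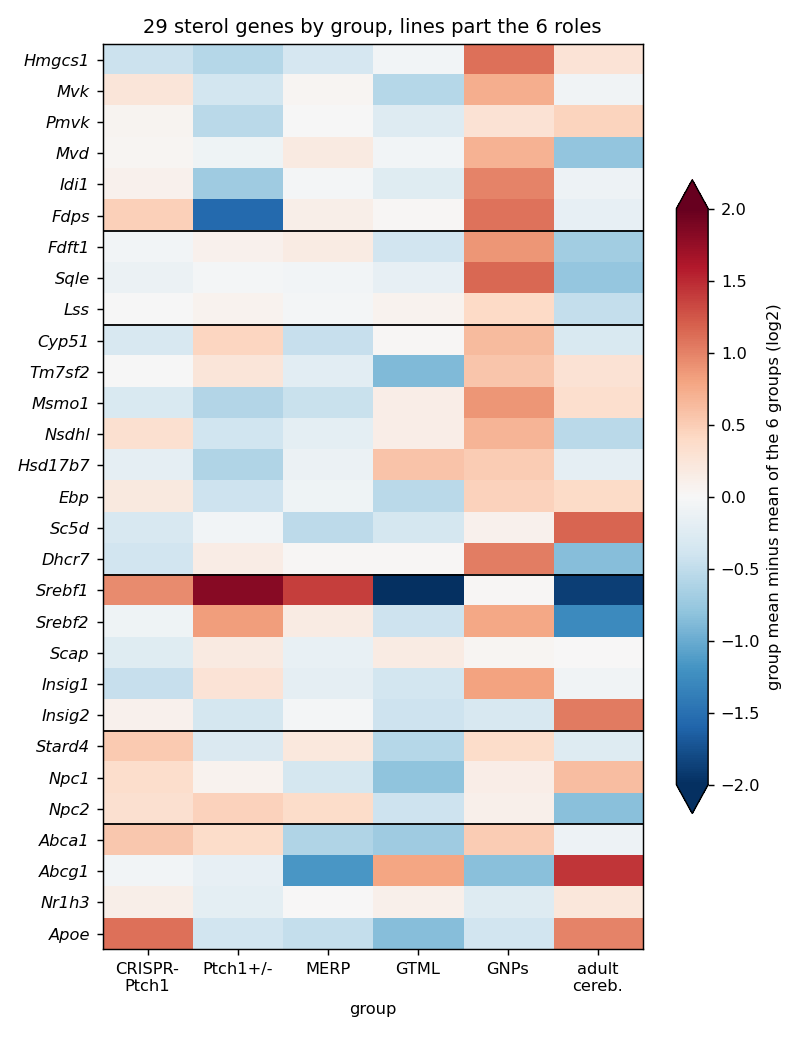
Group mean of each of the 29 measured sterol genes minus the mean of its 6 group means (colour, log2, red above and blue below), with groups on the x axis and genes on the y axis, parted by lines into the 6 roles. The GNP column is red for most enzymes, *Srebf1* is blue in GTML tumours and adult cerebellum, and *Fdps* is blue in Ptch1+/- tumours.

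The first steps, from acetyl-CoA to farnesyl diphosphate, were lower than GNPs in 4 of 6 measured enzymes in CRISPR-Ptch1 tumours and in all 6 in each other model. Over all genes the shares lower were 7.95% in CRISPR-Ptch1, 29.9% in Ptch1+/-, 12.1% in MERP and 25.7% in GTML tumours. *Hmgcs1*, HMG-CoA synthase, read 11.42 and 11.47 in the EP and 11.05 in the TF tumour, and 10.95, 10.94, 11.39 and 11.37 in Ptch1+/- tumours. *Hmgcs1* in MERP tumours read 11.62, 11.34, 11.48, 11.22 and 11.33, and in GTML tumours 11.56, 11.35, 11.85 and 11.95. GNPs read 12.83, 12.89 and 12.80 for *Hmgcs1*, against 12.10, 11.92, 12.07 and 11.97 in adult cerebellum. Every tumour array lay below every GNP array, and in all models but GTML below every adult array. The difference from GNPs was -1.53 ± 0.16 (adjusted p = 6.2e-07) in CRISPR-Ptch1, -1.68 ± 0.15 (adjusted p = 2.47e-08) in Ptch1+/-, -1.44 ± 0.14 (adjusted p = 1.33e-07) in MERP and -1.16 ± 0.15 (adjusted p = 2.29e-06) in GTML tumours. From adult cerebellum it was -0.70 ± 0.15 (adjusted p = 0.000506) in CRISPR-Ptch1, -0.85 ± 0.14 (adjusted p = 1.85e-05) in Ptch1+/-, -0.62 ± 0.13 (adjusted p = 0.000379) in MERP and -0.34 ± 0.14 (adjusted p = 0.0457, lost without GTML 1, GTML 2, adult cerebellum 1, adult cerebellum 2, adult cerebellum 3 or adult cerebellum 4 at -0.37 to -0.23) in GTML tumours. A dim probe set of the gene (mean 5.13), which correlated at 0.17 with the one used, gave 2.14 in Ptch1+/- and 0.78 in GTML tumours against adult cerebellum, and the other 3 followed the one used at 0.91 to 0.95.

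*Fdps*, which makes farnesyl diphosphate for sterols, prenylation and ubiquinone, was lowest in Ptch1+/- tumours. It read 10.33 and 10.29 in the EP and 10.57 in the TF tumour, and 9.0, 8.46, 8.20 and 7.82 in Ptch1+/- tumours. *Fdps* in MERP tumours read 10.67, 9.98, 9.05, 10.25 and 10.24, and in GTML tumours 9.48, 10.64, 9.41 and 10.29. GNPs read 10.84, 11.08 and 11.13 for *Fdps*, against 9.65, 9.81, 9.77 and 9.76 in adult cerebellum. All 4 Ptch1+/- arrays were below all arrays of every other group. The difference was -2.65 ± 0.32 (adjusted p = 1.33e-06) from GNPs and -1.38 ± 0.29 (adjusted p = 0.000377) from adult cerebellum, and CRISPR-Ptch1 tumours exceeded Ptch1+/- tumours by 2.03 ± 0.32 (adjusted p = 5.39e-05). CRISPR-Ptch1 tumours did not pass the test against GNPs, -0.62 ± 0.34 (adjusted p = 0.274), and MERP and GTML tumours were lower at -0.98 ± 0.30 (adjusted p = 0.0267, lost without MERP 3, GNPs 2 or GNPs 3 at -0.94 to -0.73) and -1.06 ± 0.32 (adjusted p = 0.0104). Ptch1+/- tumours also had the widest 3′ to 5′ gap of the groups (1.23), whose part was not tested.

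*Idi1*, the isomerase that interconverts the isoprene building blocks, read 10.28 and 10.28 in the EP and 10.83 in the TF tumour, and 9.74, 9.47, 9.95 and 9.57 in Ptch1+/- tumours. *Idi1* in MERP tumours read 10.86, 10.19, 10.32, 10.21 and 10.19, and in GTML tumours 9.57, 10.27, 10.01 and 10.73. GNPs read 11.27, 11.44 and 11.43 for *Idi1*, against 10.33, 10.22, 10.32 and 10.25 in adult cerebellum. The GNP arrays were above all others, and the Ptch1+/- arrays were below the adult ones. GNPs exceeded adult cerebellum by 1.10 ± 0.21 (adjusted p = 0.000128), CRISPR-Ptch1 tumours were below GNPs at -0.91 ± 0.22 (adjusted p = 0.00728), and CRISPR-Ptch1 tumours were above Ptch1+/- by 0.78 ± 0.21 (adjusted p = 0.00538).

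The kinases and the decarboxylase between them differed in their order. *Mvk*, mevalonate kinase, averaged 7.74 ± 0.00 in CRISPR-Ptch1 and 6.94 ± 0.22 in GTML tumours, against 8.23 ± 0.06 in GNPs. It was lower in CRISPR-Ptch1 tumours than in GNPs at -0.48 ± 0.15 (adjusted p = 0.0392, lost without EP 1, EP 2, TF 1, GNPs 1, GNPs 2 or GNPs 3 at -0.50 to -0.45), and higher than in Ptch1+/- by 0.61 ± 0.14 (adjusted p = 0.00189) and than in GTML by 0.80 ± 0.14 (adjusted p = 0.000141). *Pmvk*, phosphomevalonate kinase, averaged 8.07 ± 0.17 in Ptch1+/- tumours, its lowest group, and 9.06 ± 0.09 in adult cerebellum, its highest, and every model was lower than adult cerebellum, at -0.39 ± 0.10 (adjusted p = 0.0029) in CRISPR-Ptch1 and -0.99 ± 0.09 (adjusted p = 8.62e-09) in Ptch1+/- tumours. Adult cerebellum and GNPs did not differ by the test in *Pmvk*, -0.16 ± 0.10 (adjusted p = 0.21). *Mvd*, which decarboxylates the diphosphate of mevalonate, was higher than adult cerebellum in every group, by 0.82 ± 0.14 (adjusted p = 3.81e-05) in CRISPR-Ptch1, 0.70 ± 0.13 (adjusted p = 7.55e-05) in Ptch1+/-, 0.96 ± 0.12 (adjusted p = 5.74e-07) in MERP and 0.73 ± 0.13 (adjusted p = 4.6e-05) in GTML tumours and 1.48 ± 0.14 (adjusted p = 9.45e-09) in GNPs.

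In squalene and lanosterol formation, 2 of the 3 enzymes were lower than GNPs in CRISPR-Ptch1, Ptch1+/- and GTML tumours and all 3 in MERP tumours. The background was 7.95%, 29.9% and 25.7% in the first 3 models and 12.1% in MERP tumours. *Fdft1*, squalene synthase, read 11 and 10.97 in the EP and 10.69 in the TF tumour, and 10.95, 10.88, 11.31 and 11 in Ptch1+/- tumours. *Fdft1* in MERP tumours read 11.32, 11, 11.24, 11.13 and 10.88, and in GTML tumours 10.59, 10.90, 10.41 and 10.33. GNPs read 11.96, 11.81 and 11.75 for *Fdft1*, against 10.13, 10.29, 10.26 and 10.33 in adult cerebellum. Every tumour array lay below the GNP arrays, and those of the 3 *Ptch1* models lay above the adult ones. Against GNPs the difference was -0.95 ± 0.15 (adjusted p = 9.94e-05) in CRISPR-Ptch1, -0.81 ± 0.14 (adjusted p = 9.33e-05) in Ptch1+/-, -0.73 ± 0.13 (adjusted p = 0.00035) in MERP and -1.28 ± 0.14 (adjusted p = 2.18e-07) in GTML tumours. Against adult cerebellum it was 0.63 ± 0.14 (adjusted p = 0.000671), 0.78 ± 0.13 (adjusted p = 2.16e-05) and 0.86 ± 0.12 (adjusted p = 3.02e-06) in CRISPR-Ptch1, Ptch1+/- and MERP tumours, and 0.30 ± 0.13 (adjusted p = 0.0517) in GTML tumours, which did not pass.

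*Sqle*, squalene epoxidase and a rate-limiting step after mevalonate, read 10.31 and 10.34 in the EP and 10.56 in the TF tumour, and 11.27, 10.98, 9.68 and 10 in Ptch1+/- tumours. *Sqle* in MERP tumours read 10.70, 10.47, 10.26, 10.36 and 10.53, and in GTML tumours 10.12, 10.69, 9.74 and 10.86. GNPs read 12.07, 11.47 and 11.45 for *Sqle*, against 9.62, 9.77, 9.82 and 9.77 in adult cerebellum. Ptch1+/- arrays 3 and 4 stood more than a log2 unit below array 1 of the same group, and GNP array 1 above the other GNP arrays. The difference from GNPs was -1.26 ± 0.32 (adjusted p = 0.00922, lost without GNPs 1 at -1.06) in CRISPR-Ptch1, -1.18 ± 0.30 (adjusted p = 0.00305) in Ptch1+/-, -1.20 ± 0.28 (adjusted p = 0.00401) in MERP and -1.31 ± 0.30 (adjusted p = 0.0012) in GTML tumours. GNPs exceeded adult cerebellum by 1.92 ± 0.30 (adjusted p = 1.18e-05), the widest difference among the enzymes as read from the probe sets used. *Lss*, lanosterol synthase, averaged 7.95 ± 0.31 in CRISPR-Ptch1 tumours and 8.35 ± 0.02 in GNPs, against 7.48 ± 0.09 in adult cerebellum. With this probe set the difference from adult cerebellum was 0.47 ± 0.14 (adjusted p = 0.0101, lost without TF 1 at 0.31) in CRISPR-Ptch1, 0.54 ± 0.13 (adjusted p = 0.00158) in Ptch1+/-, 0.43 ± 0.13 (adjusted p = 0.00604) in MERP and 0.54 ± 0.13 (adjusted p = 0.00164) in GTML tumours. A second *Lss* probe set of nearly the same mean (7.93) correlated at 0.20 with the one used and gave -0.08, -0.83, -0.58 and -0.08 in that order, so no direction against adult cerebellum is drawn for *Lss*.

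From lanosterol to cholesterol the members parted. *Dhcr7*, which reduces the last precursor to cholesterol, read 8.67 and 8.75 in the EP and 9.17 in the TF tumour, and 9.77, 9.31, 9.25 and 9.24 in Ptch1+/- tumours. *Dhcr7* in MERP tumours read 9.44, 9.25, 9.11, 9.39 and 9.18, and in GTML tumours 9.20, 9.27, 9.24 and 9.31. GNPs read 10.36, 10.24 and 10.22 for *Dhcr7*, against 8.42, 8.29, 8.36 and 8.49 in adult cerebellum. GNP arrays were above, and adult arrays below, those of every tumour. GNPs exceeded adult cerebellum by 1.88 ± 0.13 (adjusted p = 1.13e-10). CRISPR-Ptch1 tumours were lower than GNPs at -1.41 ± 0.14 (adjusted p = 3.06e-07), than Ptch1+/- at -0.53 ± 0.13 (adjusted p = 0.00316), than MERP at -0.41 ± 0.13 (adjusted p = 0.0352, lost without EP 1, EP 2, MERP 1, MERP 2 or MERP 4 at -0.42 to -0.31) and than GTML at -0.39 ± 0.13 (adjusted p = 0.023, lost without EP 1 or EP 2 at -0.34 to -0.30), and higher than adult cerebellum by 0.47 ± 0.13 (adjusted p = 0.00514, lost without TF 1 at 0.32). The EP tumours were the lowest of the tumour arrays, while the TF tumour (9.17) was within the range of the MERP arrays.

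*Sc5d*, lathosterol oxidase, was highest in the adult tissue. It read 8.49 and 8.41 in the EP and 8.99 in the TF tumour, and 9.57, 9.06, 8.46 and 8.49 in Ptch1+/- tumours. *Sc5d* in MERP tumours read 8.81, 8.44, 8.03, 8.18 and 8.68, and in GTML tumours 8.47, 8.95, 8.15 and 8.76. GNPs read 9.02, 9.01 and 9.07 for *Sc5d*, against 10.11, 10.13, 10.13 and 10.11 in adult cerebellum. Adult arrays were above all others. The difference from adult cerebellum was -1.49 ± 0.24 (adjusted p = 1.97e-05) in CRISPR-Ptch1, -1.23 ± 0.22 (adjusted p = 5.66e-05) in Ptch1+/-, -1.69 ± 0.21 (adjusted p = 3.91e-07) in MERP and -1.53 ± 0.22 (adjusted p = 3.28e-06) in GTML tumours and -1.09 ± 0.24 (adjusted p = 0.000547) in GNPs. A second probe set (mean 7.93, correlation 0.25) gave -0.19 in CRISPR-Ptch1, -0.53 in MERP and -0.22 in GTML tumours and -0.05 in GNPs, none of which passed, and -2.08 in Ptch1+/- tumours, which did. The oligodendrocyte list, 8 genes of the cells that make myelin, was likewise highest in adult cerebellum (6.33 to 7.84 in the tumour and GNP groups, against 11.31 there). So were the lists of Purkinje cells (14.08 there), mature granule neurons (12.64) and astrocytes and Bergmann glia (12.02). The part of these cells was not tested.

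*Cyp51*, lanosterol demethylase, was higher in Ptch1+/- tumours (9.77 ± 0.28) and GNPs (9.97 ± 0.40) than in adult cerebellum (9.04 ± 0.07), by 0.73 ± 0.20 (adjusted p = 0.00342) and 0.93 ± 0.21 (adjusted p = 0.000908). CRISPR-Ptch1 tumours were lower than GNPs at -0.95 ± 0.23 (adjusted p = 0.00634, lost without GNPs 1 at -0.72) and lower than Ptch1+/- tumours at -0.75 ± 0.21 (adjusted p = 0.00827). A second *Cyp51* probe set (mean 8.91, correlation 0.70) kept these directions with wider differences, 1.96 in Ptch1+/- tumours and 2.97 in GNPs against adult cerebellum, and -2.68 against GNPs and -1.68 against Ptch1+/- in CRISPR-Ptch1 tumours. In MERP tumours it averaged 9.17, against 7.50 in adult cerebellum, where the probe set used gave 8.88 and 9.04. *Msmo1*, *Nsdhl* and *Hsd17b7* together strip methyl groups from the sterol ring. *Msmo1* averaged 8.58 ± 0.93 in Ptch1+/- tumours, with arrays at 9.60, 9.13, 7.68 and 7.92, against 10.04 ± 0.34 in GNPs, and was lower than GNPs at -1.46 ± 0.34 (adjusted p = 0.00166) in Ptch1+/- and -1.33 ± 0.33 (adjusted p = 0.00535) in MERP tumours. *Nsdhl* was higher than adult cerebellum by 0.86 ± 0.21 (adjusted p = 0.00181) in CRISPR-Ptch1 and 0.67 ± 0.20 (adjusted p = 0.00596) in GTML tumours and 1.23 ± 0.21 (adjusted p = 4.25e-05) in GNPs. *Hsd17b7* was the one enzyme with its highest mean in GTML tumours (9.83 ± 0.46), where it was 0.75 ± 0.22 (adjusted p = 0.00573) above adult cerebellum and not different from GNPs by the test, 0.07 ± 0.24 (adjusted p = 0.837). *Tm7sf2*, a sterol reductase, was lowest in GTML tumours (6.90 ± 0.41), with a difference of -1.43 ± 0.19 (adjusted p = 3.23e-06) from GNPs and -1.17 ± 0.18 (adjusted p = 5.85e-06) from adult cerebellum. *Ebp*, the isomerase of the sterol double bond, ranged over 8.40 to 10.63 in Ptch1+/- tumours, a spread wider than that of the 6 group means, and was lower in GTML tumours than in adult cerebellum at -0.91 ± 0.34 (adjusted p = 0.0271, lost without GTML 1, GTML 3, adult cerebellum 3 or adult cerebellum 4 at -0.91 to -0.83).

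The regulators did not share 1 pattern. *Srebf1*, the SREBP gene tied mostly to fatty acid synthesis, showed the widest range of all 29 genes. It read 11.72 and 11.58 in the EP and 13.14 in the TF tumour, and 13.23, 13.12, 12.90 and 12.85 in Ptch1+/- tumours. *Srebf1* in MERP tumours read 12.93, 12.96, 12.69, 12.77 and 11.62, and in GTML tumours 9.12, 8.89, 8.57 and 9.05. GNPs read 11.56, 11.14 and 11.01 for *Srebf1*, against 9.24, 9.38, 9.25 and 9.43 in adult cerebellum. All arrays of the 3 *Ptch1* models were above all GNP arrays, and all GTML arrays were below all adult arrays. The difference from adult cerebellum was 2.82 ± 0.31 (adjusted p = 1.22e-07) in CRISPR-Ptch1, 3.70 ± 0.28 (adjusted p = 3.33e-10) in Ptch1+/- and 3.27 ± 0.27 (adjusted p = 9.13e-10) in MERP tumours and 1.91 ± 0.31 (adjusted p = 1.86e-05) in GNPs, while GTML tumours at -0.41 ± 0.28 (adjusted p = 0.236) did not pass. From GNPs it was 1.79 ± 0.31 (adjusted p = 8.83e-05) in Ptch1+/- and 1.36 ± 0.29 (adjusted p = 0.00187) in MERP tumours, 0.91 ± 0.33 (adjusted p = 0.0732) in CRISPR-Ptch1 tumours, which did not pass, and -2.32 ± 0.31 (adjusted p = 3.11e-06) in GTML tumours. CRISPR-Ptch1 tumours were lower than Ptch1+/- tumours at -0.88 ± 0.31 (adjusted p = 0.0285, lost without EP 1, EP 2, Ptch1+/- 1 or Ptch1+/- 2 at -0.85 to -0.60), which rested on the EP tumours, and the TF tumour alone gave 0.11.

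*Srebf2*, the SREBP gene that drives cholesterol synthesis, read 8.30 and 8.34 in the EP and 8.87 in the TF tumour, and 9.71, 9.32, 9.29 and 9.36 in Ptch1+/- tumours. *Srebf2* in MERP tumours read 8.69, 8.70, 9.01, 8.54 and 8.81, and in GTML tumours 8.19, 8.24, 7.64 and 8.64. GNPs read 9.64, 9.19 and 9.26 for *Srebf2*, against 7.23, 7.22, 7.39 and 7.41 in adult cerebellum. Adult arrays were below all others, and Ptch1+/- arrays overlapped only the GNP arrays. The difference from adult cerebellum was 1.19 ± 0.19 (adjusted p = 1.8e-05) in CRISPR-Ptch1, 2.11 ± 0.17 (adjusted p = 1.06e-09) in Ptch1+/-, 1.44 ± 0.17 (adjusted p = 1.46e-07) in MERP and 0.86 ± 0.17 (adjusted p = 0.000217) in GTML tumours and 2.05 ± 0.19 (adjusted p = 7.49e-09) in GNPs. Against GNPs it was -0.86 ± 0.20 (adjusted p = 0.00512) in CRISPR-Ptch1, -0.61 ± 0.18 (adjusted p = 0.0186, lost without GNPs 1 at -0.47) in MERP and -1.19 ± 0.19 (adjusted p = 2.93e-05) in GTML tumours, and 0.06 ± 0.19 (adjusted p = 0.853) in Ptch1+/- tumours, which did not pass. A second probe set of similar brightness (mean 8.20, correlation 0.54 with the one used) averaged 7.98 in CRISPR-Ptch1, 8.19 in Ptch1+/-, 8.11 in MERP and 8.31 in GTML tumours, 8.85 in GNPs and 7.90 in adult cerebellum. With it the tumours lay far closer to adult cerebellum, and Ptch1+/- tumours lay below GNPs and GTML tumours, so neither the order of the models nor the likeness of Ptch1+/- tumours to GNPs holds over both probe sets.

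*Insig1*, itself a target of the SREBP factors and a brake on them, read 9.20 and 9.43 in the EP and 9.67 in the TF tumour, and 10.62, 10.20, 9.96 and 9.84 in Ptch1+/- tumours. *Insig1* in MERP tumours read 9.99, 9.66, 9.64, 9.63 and 9.61, and in GTML tumours 9.09, 9.85, 9.27 and 9.81. GNPs read 10.56, 10.60 and 10.90 for *Insig1*, against 9.87, 9.75, 9.78 and 9.85 in adult cerebellum. It was highest in GNPs and lowest in CRISPR-Ptch1 tumours by mean. CRISPR-Ptch1 tumours were below GNPs at -1.25 ± 0.20 (adjusted p = 0.000134) and below Ptch1+/- at -0.72 ± 0.19 (adjusted p = 0.00445). The other models were below GNPs at -0.53 ± 0.19 (adjusted p = 0.0286, lost without Ptch1+/- 3, Ptch1+/- 4, GNPs 2 or GNPs 3 at -0.57 to -0.43) in Ptch1+/-, -0.98 ± 0.18 (adjusted p = 0.000351) in MERP and -1.18 ± 0.19 (adjusted p = 3.09e-05) in GTML tumours. *Insig2*, its less sterol-responsive relative, was instead highest in adult cerebellum (10.26 ± 0.03), and was lower than there at -0.95 ± 0.20 (adjusted p = 0.000541) in CRISPR-Ptch1, -1.39 ± 0.19 (adjusted p = 1.81e-06) in Ptch1+/-, -1.07 ± 0.18 (adjusted p = 2.43e-05) in MERP and -1.44 ± 0.19 (adjusted p = 1.11e-06) in GTML tumours and -1.35 ± 0.20 (adjusted p = 8.61e-06) in GNPs. *Scap*, the SREBP escort, stayed between 9.63 and 10.83 on every array and was called in none of the 12 comparisons.

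**Figure D4:**
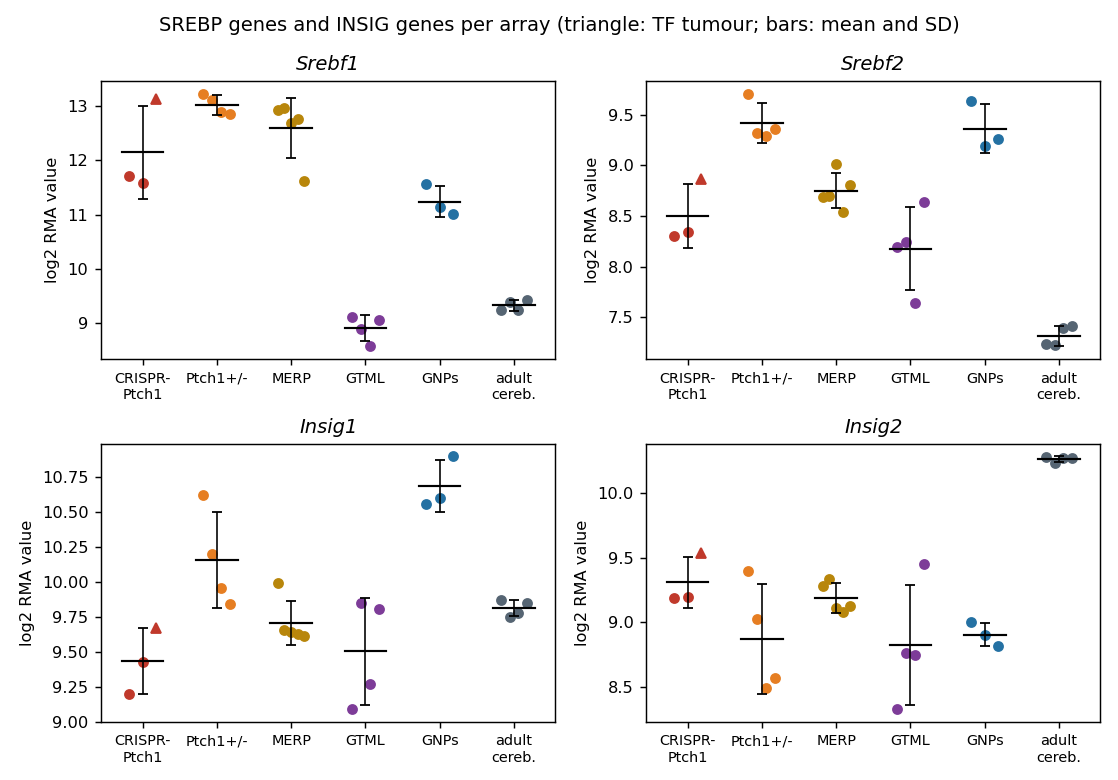
Log2 RMA values (y axis) of *Srebf1*, *Srebf2*, *Insig1* and *Insig2* on each array by group (x axis), with mean and SD as bars and the TF tumour as a triangle. *Srebf1* lies between 8.57 and 9.12 in GTML tumours and between 11.58 and 13.23 in the *Ptch1* models, *Insig1* is highest in GNPs and *Insig2* in adult cerebellum.

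Sterol transport inside the cell was lower in GTML tumours than in GNPs for all 3 genes (background 25.7%). *Npc2*, the lysosomal carrier that hands cholesterol to NPC1, read 12.63 and 12.52 in the EP and 12.60 in the TF tumour, and 13.20, 12.60, 12.61 and 12.43 in Ptch1+/- tumours. *Npc2* in MERP tumours read 12.57, 12.52, 12.63, 12.58 and 12.78, and in GTML tumours 11.87, 11.65, 11.89 and 11.93. GNPs read 12.50, 12.28 and 12.30 for *Npc2*, against 11.45, 11.42, 11.34 and 11.43 in adult cerebellum. All tumour and GNP arrays were above all adult arrays. The difference from adult cerebellum was 1.17 ± 0.13 (adjusted p = 2.09e-07) in CRISPR-Ptch1, 1.3 ± 0.12 (adjusted p = 8.46e-09) in Ptch1+/-, 1.21 ± 0.12 (adjusted p = 1.08e-08) in MERP and 0.43 ± 0.12 (adjusted p = 0.00543) in GTML tumours and 0.95 ± 0.13 (adjusted p = 2.88e-06) in GNPs.

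*Npc1*, the membrane protein that receives it, ran the other way. It read 8.22 and 8.11 in the EP and 8.03 in the TF tumour, and 8.18, 8.51, 7.11 and 7.56 in Ptch1+/- tumours. *Npc1* in MERP tumours read 7.37, 7.58, 7.18, 7.39 and 7.56, and in GTML tumours 6.97, 6.84, 6.87 and 7.15. GNPs read 8.27, 7.66 and 7.77 for *Npc1*, against 8.33, 8.30, 8.47 and 8.44 in adult cerebellum. CRISPR-Ptch1, MERP, GTML and GNP arrays were below all adult arrays, while Ptch1+/- arrays 1 and 2 stood apart from arrays 3 and 4. The difference from adult cerebellum was -0.97 ± 0.20 (adjusted p = 0.00021) in MERP and -1.43 ± 0.21 (adjusted p = 3.69e-06) in GTML tumours, -0.54 ± 0.21 (adjusted p = 0.0302, lost without Ptch1+/- 3, Ptch1+/- 4, adult cerebellum 3 or adult cerebellum 4 at -0.53 to -0.30) in Ptch1+/- tumours, and -0.27 ± 0.22 (adjusted p = 0.36) in CRISPR-Ptch1 tumours, which did not pass. CRISPR-Ptch1 tumours were above MERP by 0.70 ± 0.21 (adjusted p = 0.0331, lost without EP 1, EP 2, MERP 3 or MERP 4 at 0.64 to 0.71) and above GTML by 1.16 ± 0.22 (adjusted p = 0.000303). *Stard4*, a soluble sterol carrier, averaged 10 ± 0.04 in CRISPR-Ptch1 tumours, its highest group, above Ptch1+/- by 0.81 ± 0.20 (adjusted p = 0.00345), GTML by 1.10 ± 0.20 (adjusted p = 0.000218) and adult cerebellum by 0.79 ± 0.20 (adjusted p = 0.00268). GNPs at 9.84 ± 0.08 did not differ from CRISPR-Ptch1 tumours by the test, with a difference of 0.16 ± 0.22 (adjusted p = 0.717). A second *Stard4* probe set of nearly the same mean (9.30, correlation 0.40) averaged 9.99 in CRISPR-Ptch1, 9.15 in Ptch1+/-, 8.94 in MERP and 9.10 in GTML tumours, 9.35 in GNPs and 9.56 in adult cerebellum, so that MERP tumours and GNPs then lay below adult cerebellum.

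Among the genes of sterol export and lipoproteins, *Apoe* was higher in CRISPR-Ptch1 tumours than in each other model. *Apoe*, which encodes the main apolipoprotein of the brain, made mostly by astrocytes and also by microglia, read 13.18 and 13.40 in the EP and 12.66 in the TF tumour, and 12.48, 12.49, 10.54 and 10.87 in Ptch1+/- tumours. *Apoe* in MERP tumours read 11.11, 12.02, 11.05, 11.64 and 11.60, and in GTML tumours 11.37, 10.65, 11.60 and 10.84. GNPs read 11.80, 11.57 and 11.41 for *Apoe*, against 12.94, 13.03, 12.99 and 12.93 in adult cerebellum. The 3 CRISPR-Ptch1 arrays were above all arrays of the other tumours and of GNPs, and on both sides of the adult range. CRISPR-Ptch1 tumours exceeded Ptch1+/- by 1.49 ± 0.38 (adjusted p = 0.00355), MERP by 1.60 ± 0.36 (adjusted p = 0.00596), GTML by 1.97 ± 0.38 (adjusted p = 0.000298) and GNPs by 1.49 ± 0.40 (adjusted p = 0.0143, lost without EP 1, EP 2 or GNPs 3 at 1.33 to 1.44), and differed from adult cerebellum by 0.11 ± 0.38 (adjusted p = 0.849), which did not pass.

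Marker lists of cells that make *Apoe* also differed between groups, but not always where *Apoe* did. The 9-gene microglia and macrophage list read 9.97 and 9.71 in the EP and 8.94 in the TF tumour, against 6.76 to 8.74 in Ptch1+/-, 7.48 to 8.26 in MERP and 7.83 to 8.74 in GTML tumours, 7.73 to 8.03 in GNPs and 7.48 to 7.65 in adult cerebellum. The 9-gene astrocyte and Bergmann glia list read 10.38 to 10.67 in CRISPR-Ptch1 tumours, against 8.76 to 9.67 in Ptch1+/-, 8.88 to 10.04 in MERP and 6.49 to 9.34 in GTML tumours, 10.14 to 10.57 in GNPs and 11.99 to 12.05 in adult cerebellum. The astrocyte and Bergmann glia list of CRISPR-Ptch1 tumours thus overlapped that of GNPs, where *Apoe* did not overlap. Neither list of CRISPR-Ptch1 tumours overlapped that of adult cerebellum, where *Apoe* did. Lists of mature neurons differed as well. Purkinje cell genes (4 measured) read 9.70 and 11.43 in the EP and 8.82 in the TF tumour, against 5.35 to 7.64 in the other tumours. Mature granule neuron genes (5 measured) read 9.27 and 10.73 in the EP and 7.96 in the TF tumour, against 6.03 to 7.39 in the other tumours. The part of these cells in the sterol export genes was not tested.

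*Abcg1*, an exporter of sterol to lipoproteins and a target of liver X receptors, read 9.68 and 10.08 in the EP and 8.86 in the TF tumour, and 9.25, 10.04, 9.01 and 9.36 in Ptch1+/- tumours. *Abcg1* in MERP tumours read 8.08, 8.87, 8.38, 8.64 and 8.11, and in GTML tumours 10.48, 10.02, 10.62 and 10.39. GNPs read 9.02, 8.67 and 8.58 for *Abcg1*, against 11.11, 10.98, 10.99 and 10.99 in adult cerebellum. Adult arrays were above all others, and MERP and GTML arrays did not overlap. The difference from adult cerebellum was -1.48 ± 0.26 (adjusted p = 5.13e-05) in CRISPR-Ptch1, -1.60 ± 0.24 (adjusted p = 5.16e-06) in Ptch1+/-, -2.60 ± 0.22 (adjusted p = 1.78e-09) in MERP and -0.64 ± 0.24 (adjusted p = 0.0253, lost without GTML 2 or adult cerebellum 1 at -0.61 to -0.52) in GTML tumours and -2.26 ± 0.26 (adjusted p = 1.56e-07) in GNPs. CRISPR-Ptch1 tumours were above MERP by 1.13 ± 0.24 (adjusted p = 0.00461, lost without EP 2 at 0.86) and below GTML at -0.83 ± 0.26 (adjusted p = 0.0135, lost without TF 1 at -0.49). *Abca1*, which exports cholesterol to lipid-poor apolipoproteins, was above MERP by 1.15 ± 0.34 (adjusted p = 0.0287, lost without EP 1, EP 2, MERP 1, MERP 3 or MERP 4 at 0.95 to 1.13) and above GTML by 1.25 ± 0.35 (adjusted p = 0.00832, lost without EP 2 at 1.05) in CRISPR-Ptch1 tumours, with EP values of 11.45 and 11.64 and a TF value of 10.65. *Nr1h3*, the other liver X receptor, was dim in every group (5.69 in GNPs to 6.17 in adult cerebellum), near the array medians of 6.0 to 6.17, and was lower than adult cerebellum at -0.48 ± 0.13 (adjusted p = 0.00261) in GNPs and -0.42 ± 0.12 (adjusted p = 0.00383) in Ptch1+/- tumours.

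**Figure D5:**
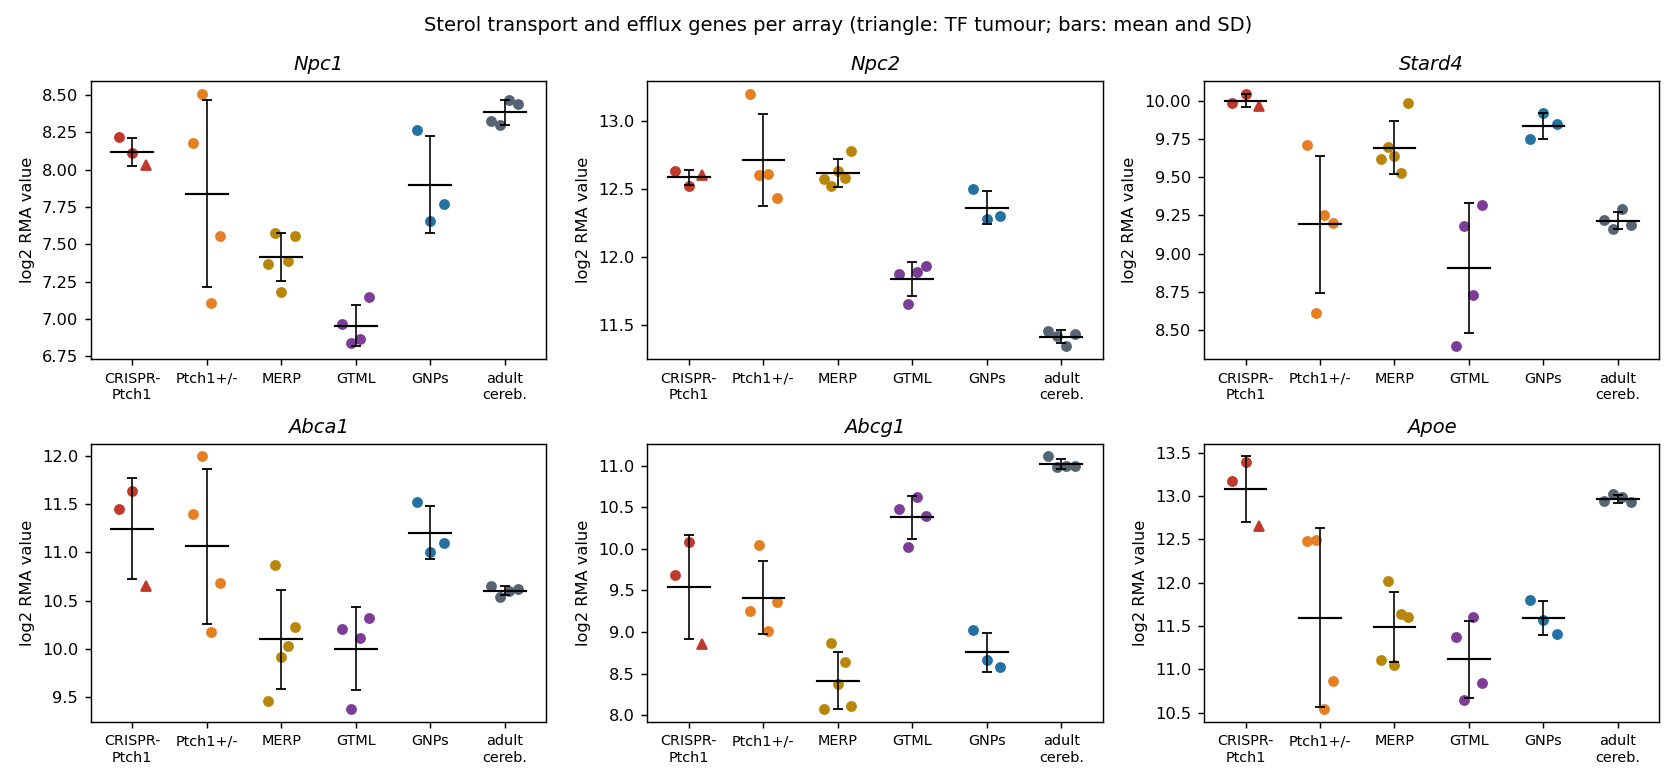
Log2 RMA values (y axis) of *Npc1*, *Npc2*, *Stard4*, *Abca1*, *Abcg1* and *Apoe* on each array by group (x axis), with mean and SD as bars and the TF tumour as a triangle. *Apoe* lies between 12.66 and 13.40 in CRISPR-Ptch1 tumours, above all other tumour arrays, and *Abcg1* between 10.98 and 11.11 in adult cerebellum, above all other arrays.

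Genes beside the pathway gave mixed counts, to be read against shares over all genes of 22.4% to 30.8% higher and 21% to 30.8% lower in the comparisons with adult cerebellum. Of 10 genes of fatty acid synthesis and desaturation, targets of the *Srebf1* arm, 4 were higher and 4 lower than adult cerebellum in each of the 4 models and in GNPs, whereas *Srebf1* was higher in the *Ptch1* models and GNPs but not called in GTML tumours. *Scd1*, the stearoyl-CoA desaturase, differed from adult cerebellum at -2.01 ± 0.53 in CRISPR-Ptch1, -4.37 ± 0.49 in Ptch1+/-, -4.57 ± 0.47 in MERP and -3.15 ± 0.49 in GTML tumours and -3.36 ± 0.53 in GNPs. Against GNPs, 0 of these 10 genes were called in CRISPR-Ptch1 tumours, 4 were lower in Ptch1+/-, 2 lower in MERP, and 3 higher and 4 lower in GTML tumours, where the shares lower over all genes were 7.95%, 29.9%, 12.1% and 25.7% in that order. Of 6 measured genes of SREBP cleavage and INSIG turnover, 4 were higher and 0 lower in GNPs than in adult cerebellum, among them the proteases *Mbtps1* (0.83 ± 0.17) and *Mbtps2* (0.74 ± 0.18) that cut SREBP factors in the Golgi. The tumours were near this, with 3 higher and 0 lower in CRISPR-Ptch1 and in MERP, 3 and 1 in Ptch1+/- and 2 and 1 in GTML tumours. *Mbtps1* was higher than adult cerebellum by 1.62 ± 0.16 in Ptch1+/-, 1.3 ± 0.15 in MERP and 0.98 ± 0.16 in GTML tumours, and lower in CRISPR-Ptch1 than in Ptch1+/- tumours at -1.04 ± 0.17.

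Of 14 measured genes of sterol uptake, storage and turnover, 9 were lower than adult cerebellum in CRISPR-Ptch1, 7 in Ptch1+/-, 10 in MERP and 7 in GTML tumours and 7 in GNPs, and 4, 3, 4, 4 and 4 were higher. Over all genes the shares lower were 21.1%, 30.8%, 24.9%, 27.9% and 21%, and those higher 26.4%, 22.4%, 30.8%, 27.3% and 29.1%, in the same order. *Cyp46a1* encodes the neuronal enzyme that turns cholesterol into an exportable hydroxysterol. It was lower than adult cerebellum at -2.29 ± 0.30 in CRISPR-Ptch1, -2.44 ± 0.28 in Ptch1+/- and -2.70 ± 0.26 in MERP tumours and at -2.43 ± 0.30 in GNPs. In GTML tumours it was higher than in GNPs by 0.97 ± 0.30. *Pltp*, a phospholipid transfer protein, was lower than GNPs at -1.85 ± 0.19 in CRISPR-Ptch1, -2.53 ± 0.17 in Ptch1+/-, -2.25 ± 0.17 in MERP and -2.61 ± 0.17 in GTML tumours. In the non-sterol isoprenoid branch, fed by *Fdps*, 0 of 6 genes were called between CRISPR-Ptch1 tumours and GNPs, 3 were lower in Ptch1+/- tumours (background 29.9%) and 3 higher in GTML tumours (background 16.1%) than in GNPs. Each difference given for these 5 genes passed the test in limma.

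As a description over the 23 arrays, which fall into 6 groups and share their normalization, an enzyme's median Pearson correlation with the 16 other enzymes ran up to 0.55 for *Sqle* and *Nsdhl*, and was 0.09 for *Sc5d*. *Insig1* correlated positively with 17 of 17 enzymes (median 0.45), *Srebf2* with 10 of 17 (median 0.19) and *Srebf1* with 9 of 17 (median 0.02). *Hmgcs1* had a median of 0.32. After subtraction of each group's mean the enzyme medians were 0.37 for *Sqle*, 0.43 for *Nsdhl*, 0.44 for *Sc5d* and -0.37 for *Hmgcs1*, so the order of the enzymes was not kept. For the regulators they were then 0.51 for *Insig1*, 0.22 for *Srebf2* and 0.29 for *Srebf1*. *Insig1* was thus nearer to the enzymes than either SREBP gene on both scales, and array-wide shifts in signal enter all of these values.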

How the data were processed

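RNA of 23 mouse samples was measured on 1 Affymetrix whole-genome array platform. The authors deposited log2 values of 45101 probe sets, made with RMA in Expression Console 1.3.1 per the labels' processing notes. All 23 columns were used. The number of arrays limits the precision. Probe sets with 1 gene symbol (34958) were kept, 932 with several and 9211 with none were left out, and each gene was read from its probe set of highest mean. Groups came from the labels. A linear model of 6 groups was fitted with limma 3.58.1 (R 4.3.3), with Benjamini-Hochberg adjustment over 18194 genes, after the procedure was tested on simulated data. All 31 genes are named, and values on every array are given for the 2 of widest group spread in each role and, by their role, for *Hmgcs1*, *Sqle*, *Srebf2*, *Insig1*, *Npc1* and *Apoe*, of which *Hmgcs1* and *Insig1* are not among those. Members, marker lists and the lists of other lipid genes were chosen with earlier results of these data known. Alternatives covered scaling, probe set choice, a filter on dim genes, variance moderation, array weights, the groups in the fit, EP or TF tumours alone, a replicate block and each array left out. Promoters came from RefSeq (GRCm38.p6).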

Additional observations from a re-analysis of the deposited data

Results flagged for a closer look

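Of 116 groups of 4 or 5 arrays tested, 1 for each gene and group, 7 held an array that stood apart from the others by Dixon's criterion, and chance alone gives about 1 in 20. In MERP tumours, array 1 was highest for *Idi1* (10.86, the others 10.19 to 10.32) and for *Insig1* (9.99, the others 9.61 to 9.66). MERP array 5 was lowest for *Srebf1* (11.62, the others 12.69 to 12.96), and MERP array 4 was highest for *Nr1h3* (6.14, the others 5.88 to 5.96). In Ptch1+/- tumours, array 1 was highest for *Dhcr7* (9.77, the others 9.24 to 9.31) and for *Srebf2* (9.71, the others 9.29 to 9.36). Adult cerebellum array 1 was highest for *Abcg1* (11.11, the others 10.98 to 10.99). The group of 3 CRISPR-Ptch1 tumours was too small for this criterion, as was that of the 3 GNP samples.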

How the results depend on the processing

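Over the 12 comparisons, 189 calls of the 29 genes were made. Centring on the median of named genes ended 35 of them and reversed 2, *Insig1* in Ptch1+/- against GNPs (0.01) and *Pmvk* in CRISPR-Ptch1 against GTML (-0.06). Taking the probe set of highest SD ended 10 and reversed 7: *Hmgcs1* in Ptch1+/- (2.14) and GTML (0.78) against adult cerebellum and in Ptch1+/- against GNPs (0.46), and *Lss* in CRISPR-Ptch1 (-0.08), Ptch1+/- (-0.83), MERP (-0.58) and GTML (-0.08) against adult cerebellum. The TF tumour alone reversed *Srebf1* in CRISPR-Ptch1 against Ptch1+/- (0.11). Array weights, whose iterations did not all converge, gave 23 calls in CRISPR-Ptch1 against adult cerebellum, 25 against GNPs and 10 against MERP. Fitting only the groups compared gave 24 against adult cerebellum and 2 against MERP, and the TF tumour alone, as 1 array assumed to vary like the other groups, 6 against GNPs, 4 against Ptch1+/- and 0 against MERP. With 1 array left out, CRISPR-Ptch1 against MERP had 1 to 6 calls, and 41 of the 189 calls were lost in at least 1 such fit. The cause of these changes was not tested. The F test was not run on only the groups compared. Other totals of calls stayed within 1.5 times.

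Samples of the same replicate number did not deviate together on average (mean correlation -0.01 over 46 pairs, against 0.01 over 153 pairs of unlike number). Single pairs ran from -0.28 to 0.23, and those of unlike number from -0.23 to 0.30. The numbers thus gave no sign of pairing, which such a mean cannot exclude. A replicate block gave 13, 22, 17, 18 and 22 calls against adult cerebellum in CRISPR-Ptch1, Ptch1+/-, MERP, GTML and GNPs, then 14, 16, 18 and 21 in the 4 tumour models against GNPs. In CRISPR-Ptch1 it gave 10, 5 and 9 against Ptch1+/-, MERP and GTML, and 27 in the F test.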
